A study of Mus musculus with 16 samples.

Results

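The enzymes that oxidise ketone bodies in mitochondria were followed as 3 genes, Bdh1, Oxct1 and Acat1, in 16 bulk RNA sequencing libraries of mouse heart. The genes were taken as the rows of the deposited tables carrying these 3 symbols, and all 3 were found among 24371 genes. All hearts came from a mouse model of HFpEF, the form of heart failure in which the ejection fraction is kept, made over 12 weeks with a high-fat diet and L-NAME, a nitric oxide synthase inhibitor. The hearts formed 4 groups of 4: Gpr91fl/fl hearts (floxed hearts) without and with succinate, and Myh6Cre Gpr91fl/fl hearts (Cre hearts) without and with succinate. Gpr91, now named Sucnr1, encodes the cell-surface receptor for succinate, and both its alleles were floxed in every group. The Myh6 promoter drives Cre in cardiomyocytes, so other cells of a Cre heart keep the gene. The labels give no age, dose or healthy comparison group, and do not say whether each replicate was its own animal. In this text a heart means a library. The spread behind every p-value is therefore that between these 16 libraries, and it may be technical.

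Ketone bodies are made mainly in the liver and are a fuel for the heart. Bdh1 encodes 3-hydroxybutyrate dehydrogenase, which oxidises 3-hydroxybutyrate to acetoacetate. Oxct1 encodes 3-oxoacid CoA transferase, which moves coenzyme A from succinyl-CoA to acetoacetate and so releases succinate. This is the step that commits ketone bodies to oxidation, and liver cells largely lack the enzyme. Acat1 encodes the mitochondrial acetoacetyl-CoA thiolase, which splits acetoacetyl-CoA into acetyl-CoA for the TCA cycle and also acts in isoleucine breakdown. All 3 enzymes work in mitochondria and are encoded in the nucleus.

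Total counts per library ranged from 27835235 to 34700996, and the 3 genes had 629 to 31219 counts in every library, so counting error was small beside the spread between hearts. All 8 fixed cardiomyocyte markers were present, with a summed level of 17955.5 to 22106.4 FPKM over the 16 libraries. FPKM is the authors' count scaled to gene length and to the library's total. Defining markers of liver cells and white fat were near 0, with summed levels of at most 0.618 and 1.85 FPKM. The floxed gene Sucnr1 had 0 to 21 counts per library and was not lower in Cre hearts, so genotype below means the label.

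The deposited tables give 1 value per gene, so transcripts and start sites of a gene were not separated. The sequence upstream of the RefSeq start is shown for Oxct1, the member whose difference with succinate passed the test in both genotypes, and for the first of 2 annotated starts of Bdh1, the member that varied most between hearts. Both run 5′ to 3′ on the plus strand of GRCm38.p6 (RefSeq), and capitals mark CG dinucleotides, which are dense in CpG-island promoters. Each begins 250 bases before the start and stops where GENCODE M21 places the first exon base of the gene, 45 bases before the RefSeq start for Oxct1 and 17 before it for Bdh1. The Oxct1 stretch is chr15:4026178-4026382 and the Bdh1 stretch is chr16:31422047-31422279.
Oxct1: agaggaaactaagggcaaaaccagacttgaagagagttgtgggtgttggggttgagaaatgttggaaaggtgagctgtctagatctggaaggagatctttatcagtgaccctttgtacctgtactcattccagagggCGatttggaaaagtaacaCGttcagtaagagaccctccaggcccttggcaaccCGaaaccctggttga
Bdh1: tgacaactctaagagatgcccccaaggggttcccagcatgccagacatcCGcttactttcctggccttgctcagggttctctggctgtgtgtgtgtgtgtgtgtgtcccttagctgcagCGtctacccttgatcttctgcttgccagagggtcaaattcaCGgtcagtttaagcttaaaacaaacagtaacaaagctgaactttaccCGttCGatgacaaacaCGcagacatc
All 250 bases before the Oxct1 start also lie in annotated exons of BC037032, a noncoding gene on the opposite strand, while 0 of those before this Bdh1 start lie in an exon of the opposite strand. All 250 bases before the second Bdh1 start, which is not shown, lie in exons of the opposite strand. The full 250 bases before the shown starts held 6 CG dinucleotides for Oxct1 and 7 for Bdh1, against a median of 6 over 32851 upstream windows of the same length. The motifs AGGTCA (a nuclear receptor binding element), GGGCGG and TATAAA were found on neither strand of either 250-base window. They occurred in 14%, 32.7% and 12.4% of all windows.

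Oxct1 and Acat1 were among the more abundant transcripts of these hearts, and Bdh1 was far lower. Over all 16 libraries the median level was 180 FPKM for Oxct1, 158 FPKM for Acat1 and 14.1 FPKM for Bdh1, on a scale corrected for gene length. Oxct1 ranked between 209 and 385 by FPKM among all 24371 genes, Acat1 between 267 and 417, and Bdh1 between 1857 and 5680. In untreated floxed hearts Oxct1 (152 ± 4.35 FPKM, SD, n = 4) and Acat1 (152 ± 6.11 FPKM) were at about the same level, within their spread.

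Oxct1 rose with succinate in both genotypes by about the same amount, and in floxed hearts its difference was the largest of the 3 genes. In replicates 1 to 4 of the untreated floxed hearts Oxct1 was at 148, 156, 156 and 149 FPKM. In floxed hearts given succinate it was at 234, 231, 262 and 208 FPKM. Every treated heart lay above every untreated one. On the counts as scaled for the test the level rose 1.59-fold. This was 0.67 ± 0.09 on the log2 scale (SE, 95% interval 0.47 to 0.86, adjusted p = 0.000307). The mean FPKM, which is scaled otherwise, rose 1.54-fold. In Cre hearts Oxct1 was at 146, 154, 147 and 156 FPKM without succinate and at 223, 203, 224 and 258 FPKM with it. These groups did not overlap either. The rise was 1.54-fold, or 0.63 ± 0.09 on the log2 scale (SE, interval 0.43 to 0.82, adjusted p = 0.00593).

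By p-value Oxct1 stood 49th of 14607 tested genes for succinate in floxed hearts and 5th in Cre hearts. It passed under all 12 other processing choices and with each of the 16 libraries left out, in both genotypes, with a highest adjusted p of 0.0399. The succinate effects of the genotypes differed by -0.04 ± 0.13 (log2, Cre minus floxed, SE, interval -0.32 to 0.23, adjusted p = 0.983), a difference that was not detected. The spread between hearts was wider with succinate (SD 21.96 and 22.9 FPKM) than without it (4.35 and 5.02 FPKM) in floxed and Cre hearts, and the change in spread was not tested.

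Acat1, the last enzyme of the chain, was higher with succinate by a smaller amount, which did not pass the test in either genotype alone. It was at 147, 161, 152 and 149 FPKM in replicates 1 to 4 of the untreated floxed hearts and at 186, 175, 182 and 179 FPKM with succinate. These groups did not overlap. The difference was 0.30 ± 0.10 on the log2 scale (SE, interval 0.08 to 0.51) and just missed the threshold (adjusted p = 0.0591). It passed under 7 of 12 other processing choices, among them DESeq2 (adjusted p = 0.0273), and when replicate 1 of the Cre hearts without succinate was left out (adjusted p = 0.0267), a library that enters only the shared estimate of spread. In Cre hearts Acat1 was at 121, 146, 156 and 138 FPKM without succinate and at 161, 166, 148 and 164 FPKM with it. Here the groups overlapped, since the lowest treated heart lay below the highest untreated one. The difference was 0.22 ± 0.10 (log2, SE, interval 0.01 to 0.44, adjusted p = 0.319).

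Bdh1, the first enzyme of the chain, varied most. It was at 15.996, 5.43, 12.8 and 10.3 FPKM in the untreated floxed hearts, a range of 2.94-fold, and at 10.1, 15.5, 15.4 and 8.48 FPKM with succinate. The groups overlapped widely, and the difference was 0.19 ± 0.25 on the log2 scale (SE, interval -0.34 to 0.72, adjusted p = 0.658). Its sign rested on replicate 2 of the untreated hearts, without which it was -0.059. In Cre hearts Bdh1 was at 16.9, 12.6, 12.6 and 11.1 FPKM without succinate and at 21.5, 17.8, 22.6 and 22.4 FPKM with it. Every treated Cre heart lay above every untreated one. The difference was 0.71 ± 0.25 (log2, SE, interval 0.18 to 1.24), as large as that of Oxct1, but with its wide spread it did not pass (adjusted p = 0.201). It passed when the fit held only the Cre hearts (adjusted p = 0.0320).

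**Figure D1:**
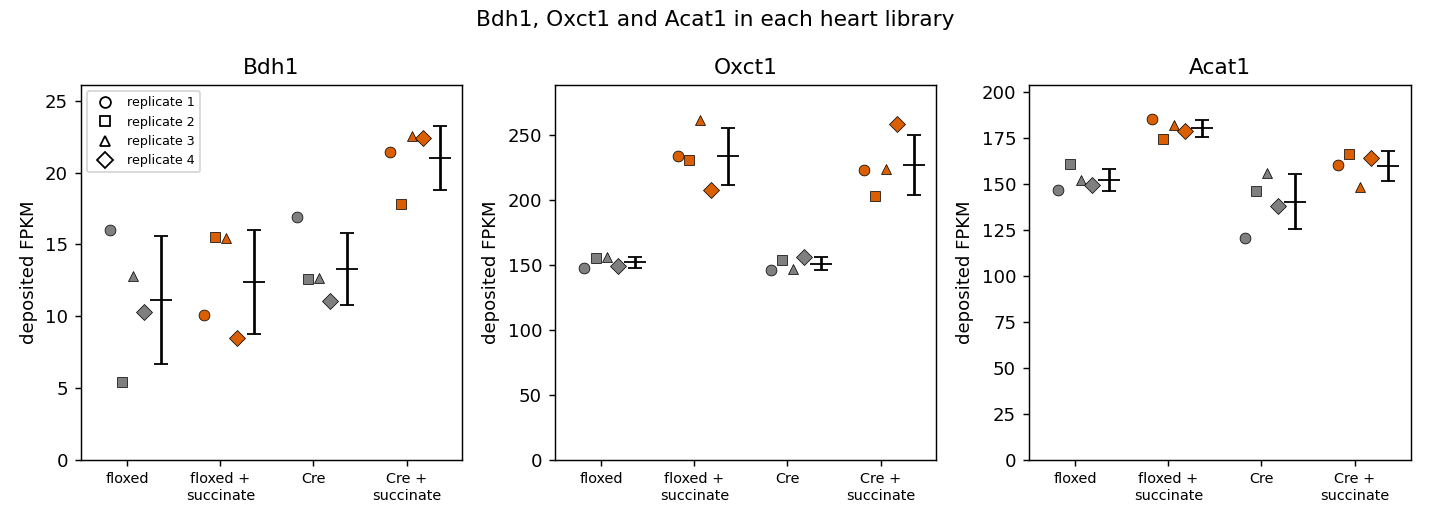
Deposited FPKM (vertical axes, each starting at 0) of Bdh1, Oxct1 and Acat1 in each of the 16 libraries by group, with marker shapes for replicates 1 to 4 and the mean ± SD (n = 4) beside the points. Oxct1 lies at 146 to 156 FPKM in all 8 untreated hearts and at 203 to 262 FPKM in all 8 given succinate, Acat1 differs less, and Bdh1 spreads widely in floxed hearts.

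Counted together, 1 of the 3 genes rose with succinate in floxed hearts, where 7.48% of the 14607 tested genes rose, and 1 of 3 in Cre hearts, where 0.602% rose; both times the gene was Oxct1. The effect averaged over the genotypes, which uses the same libraries again, was 0.65 ± 0.07 for Oxct1 (adjusted p = 1.17e-05), 0.26 ± 0.07 for Acat1 (adjusted p = 0.0161) and 0.45 ± 0.18 for Bdh1 (adjusted p = 0.0894), all log2 with SE. By this measure 2 of 3 rose, against 10.6% of all tested genes. The median log2 change of the 3 genes was 0.30 in floxed and 0.63 in Cre hearts, where the median of all tested genes was 0.0024 and 0.0068. Treated and untreated FPKM did not overlap, with the treated hearts higher, for 2 of 3 genes in floxed hearts (7.32% of all tested genes) and 2 of 3 in Cre hearts (3.93%). The 3 genes, and all gene lists below, were chosen with earlier results of these data known. The counts and medians set beside all genes are therefore descriptions and no test of a set.

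Markers of several cell types differed beside these values. In bulk tissue, fewer cells of a type and less RNA per cell cannot be told apart. The 8 cardiomyocyte markers had a median log2 change of 0.14 with succinate in floxed hearts and 0.16 in Cre hearts. Their summed level was 19116.4 to 21240.5 FPKM in untreated and 19424.9 to 22106.4 FPKM in treated floxed hearts, and 17955.5 to 19883.2 and 19215.1 to 21916.9 FPKM in untreated and treated Cre hearts. Of these markers 2 of 8 rose in floxed hearts (7.48% of all tested genes did), Myh6 by 0.69 ± 0.13 and Ryr2 by 0.72 ± 0.20, and 1 of 8 in Cre hearts (0.602% of all), Myh6 by 0.56 ± 0.13 (log2, SE). The 6 macrophage markers had a median of -0.57 in floxed hearts, where 3 fell (5.64% of all tested genes did), and -0.33 in Cre hearts, where 0 passed. They summed to 245 to 364 FPKM in untreated and 138 to 272 FPKM in treated floxed hearts, and to 270 to 477 and 181 to 330 FPKM in untreated and treated Cre hearts.

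Of 6 endothelial markers 1 fell in floxed hearts (5.64% of all tested genes did), Emcn (-0.42 ± 0.13, adjusted p = 0.0445). Their median was -0.09 in floxed hearts, with 2 above 0, and 0.06 in Cre hearts, with 4 above 0. The highest in floxed hearts was Fabp4 (0.74 ± 0.28, adjusted p = 0.0932). Of 6 smooth muscle and pericyte markers 1 rose in Cre hearts (0.602% of all did), Pdgfrb (0.34 ± 0.08, adjusted p = 0.0474). The median of the 6 was -0.006 in Cre hearts, with 3 above 0. In floxed hearts it was -0.35, with 2 above 0, and 0 passed. Of the 5 erythroid markers 0 passed; their median was 0.94 in floxed hearts, with all 5 values above 0, and -0.59 in Cre hearts, with all 5 below 0. Of the 6 fibroblast markers 0 passed in any comparison; all 6 values were above 0 for Cre against floxed hearts, with medians of 0.37 without and 0.44 with succinate. Of the 5 atrial markers Nppa, the gene of atrial natriuretic peptide, carried nearly all of the summed level: it was at 73.7 to 2043 FPKM over the 16 libraries, and each of the other 4 was at most 0.609 FPKM. Nppa fell in floxed hearts (-1.92 ± 0.44, adjusted p = 0.0122) and was at -0.26 ± 0.42 in Cre hearts (adjusted p = 0.840). Of the 2 tested atrial markers 1 was higher in Cre than in floxed hearts with succinate, where 0.691% of all genes passed, and 0 passed without it. With succinate the 2 values were 0.69 and 3.13. The atrial markers then summed to 73.9 to 105 FPKM in floxed and 516 to 1084 FPKM in Cre hearts. The part of these differences in those of Oxct1, Acat1 and Bdh1 was not tested.

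The genotypes were compared next, to ask whether the label of a cardiomyocyte receptor knockout went with other levels of these enzymes. Without succinate none of the 3 genes differed past the threshold, where 0.11% of all genes did. Oxct1 in Cre hearts was within -0.23 to 0.16 of its floxed level on the log2 scale (95% interval, difference -0.03 ± 0.09, SE, adjusted p = 0.949). The difference was -0.14 ± 0.10 for Acat1 (adjusted p = 0.741) and 0.22 ± 0.25 for Bdh1 (adjusted p = 0.846). All 3 genes overlapped between these groups, where 4.58% of genes did not.

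With succinate the same 3 genes again did not pass (0.691% of all genes did), but 2 of them did not overlap between genotypes, as was true of 7.02% of genes. Bdh1 was at 8.48 to 15.5 FPKM in floxed and 17.8 to 22.6 FPKM in Cre hearts. Every Cre heart was higher, with a difference of 0.74 ± 0.25 (log2, SE, interval 0.20 to 1.27, adjusted p = 0.244). Acat1 was at 175 to 186 FPKM in floxed and 148 to 166 FPKM in Cre hearts. Here every Cre heart was lower, with a difference of -0.21 ± 0.10 (adjusted p = 0.459). Oxct1 overlapped fully, at -0.07 ± 0.09 (adjusted p = 0.847). The interaction, the test of whether succinate acted differently by genotype, was 0.51 ± 0.35 for Bdh1 (interval -0.24 to 1.26, adjusted p = 0.970) and -0.07 ± 0.14 for Acat1 (adjusted p = 0.979). By edgeR 0% of all genes passed it, and DESeq2 called 3. Of the 14607 tested genes 709 had an unadjusted p under 0.05, no more than that threshold alone would give. No difference between genotypes in the response of the 3 genes was detected.

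**Figure D2:**
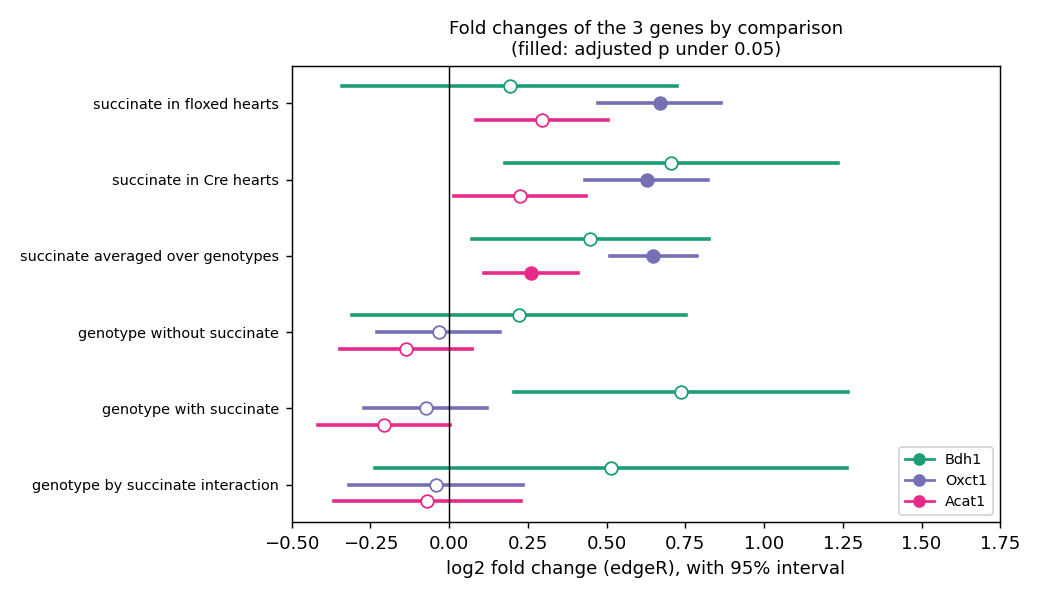
Log2 fold change (horizontal axis) of Bdh1, Oxct1 and Acat1 in each of 6 comparisons from edgeR, as a point with its 95% interval, filled where the adjusted p is under 0.05. Oxct1 is filled in all 3 succinate comparisons (0.67, 0.63 and 0.65), Acat1 in the averaged one (0.26), and no point is filled for genotype or interaction.

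Because the ratio of 2 genes within a library does not depend on how libraries are scaled, the members were also set against each other. Oxct1 and Acat1 stood at an FPKM ratio of 0.999 ± 0.0232 in untreated floxed hearts and 1.30 ± 0.115 with succinate (SD, n = 4). The ratio was 1.09 ± 0.114 in untreated and 1.42 ± 0.155 in treated Cre hearts. Treated and untreated hearts did not overlap in either genotype, at 0.969 to 1.02 against 1.16 to 1.44 in floxed and 0.943 to 1.21 against 1.22 to 1.57 in Cre hearts. Oxct1 thus stood higher relative to Acat1 with succinate, on a measure free of library scaling. The ratio of Oxct1 to Bdh1 was 16.1 ± 8.63 and 19.9 ± 4.73 in untreated and treated floxed hearts, and 11.7 ± 2.26 and 10.8 ± 0.785 in Cre hearts. It overlapped between treated and untreated hearts in both genotypes, and with succinate it was lower in every Cre heart (9.93 to 11.5) than in any floxed heart (14.9 to 24.5). These ratios are given without a test.

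**Figure D3:**
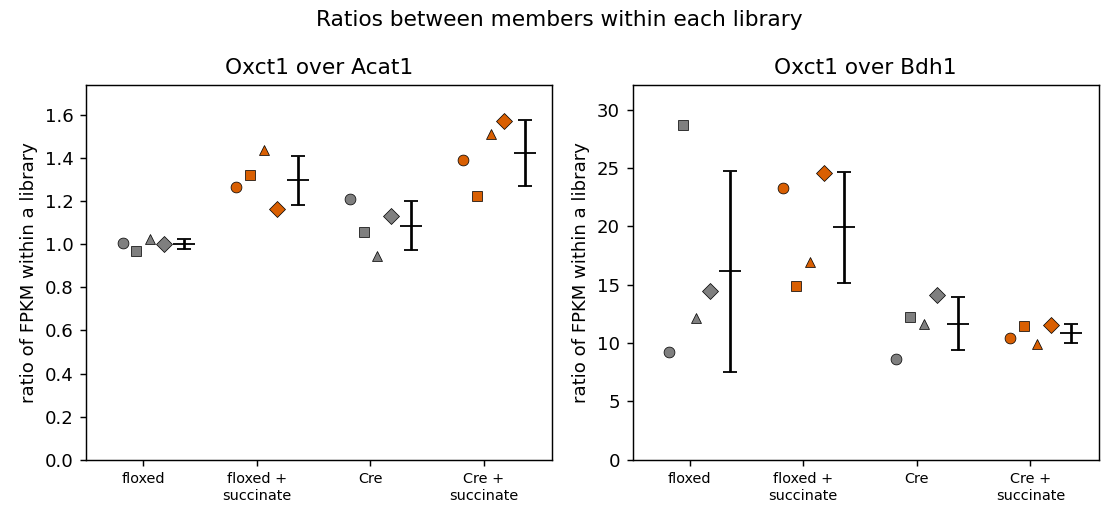
Ratio of deposited FPKM within each library (vertical axes, starting at 0) for Oxct1 over Acat1 and Oxct1 over Bdh1, by group, with the mean ± SD (n = 4) beside the points. The first ratio is higher with succinate in both genotypes (means of 0.999 and 1.30, and 1.09 and 1.42), and the second is narrow at 9.93 to 11.5 in treated Cre hearts.

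Over the 16 libraries the log2 level of Oxct1 correlated with that of Acat1 at r = 0.751, and that of Bdh1 with Oxct1 at r = 0.412 and with Acat1 at r = -0.0887. After the group means were taken out these values were r = 0.424, 0.114 and -0.362. These correlations share library depth and scaling and are descriptions. The genes most like each member over the 16 libraries were found among 11219 tested genes whose log2 CPM averaged 1 or more. Acat1 was most like genes of fatty acid oxidation and its electron transfer: Acadm (r = 0.977), Etfa (r = 0.972) and Acadvl (r = 0.970), followed by the mitochondrial protein gene Nipsnap2 (r = 0.969). Acadm and Acadvl encode the medium-chain and very-long-chain acyl-CoA dehydrogenases, and Etfa a subunit of the flavoprotein that takes their electrons. For Acadm, Etfa, Acadvl and Nipsnap2 the values were r = 0.960, 0.920, 0.909 and 0.929 with group means removed. They come from the same 16 libraries that picked these genes, so they are no separate check. Oxct1 ranked 476th by likeness to Acat1.

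Oxct1 was most like Hbp1 (r = 0.958), a transcriptional repressor gene, Trmt5 (r = 0.957), a tRNA methyltransferase gene, Aifm1 (r = 0.954), which encodes a flavoprotein of the mitochondrial intermembrane space, and Pwp1 (r = 0.952). With group means removed these fell to r = 0.656, 0.452, 0.516 and 0.666, so part of the likeness lay between the groups. Trmt5 rose with succinate by 0.97 ± 0.10 in floxed and 0.85 ± 0.10 in Cre hearts (log2, SE), with adjusted p = 3.31e-05 and 0.00118. Hbp1, Aifm1 and Pwp1 also rose in floxed hearts (0.55 ± 0.08, 0.53 ± 0.08 and 0.47 ± 0.08). In Cre hearts Hbp1 (0.42 ± 0.08) and Aifm1 (0.48 ± 0.08) rose, and Pwp1 did not pass (0.31 ± 0.08, adjusted p = 0.0763). All were picked for likeness to Oxct1 over the same libraries, so these differences are no separate check. Acat1 ranked 694th and Bdh1 2811th by likeness to Oxct1.

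Bdh1 was most like Dusp4 (r = 0.907), a phosphatase gene of MAP kinases, Slc38a1 (r = 0.883), an amino acid transporter gene, Fdxr (r = 0.833), which encodes the mitochondrial ferredoxin reductase, and Dct (r = 0.819). With group means removed the values were r = 0.852, 0.774, 0.688 and 0.680. Dusp4 was at 0.70 ± 0.25 with succinate in floxed hearts (adjusted p = 0.0729) and at 0.78 ± 0.24 in Cre hearts (adjusted p = 0.134), both log2 with SE. Dusp4 was picked over the same libraries, so these values are no separate check. Oxct1 ranked 800th and Acat1 6943th by likeness to Bdh1.

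Among the other tested genes of ketone metabolism 0 passed as higher with succinate in either genotype. Of 16 genes listed for synthesis, other use, transport and sensing, 14 were in the tables and 10 passed the filter on low counts. Of these 10, 0 rose, 2 fell and 8 did not pass in floxed hearts, where 7.48% of all tested genes rose and 5.64% fell. For 10 genes, 0 higher calls is close to that share. In Cre hearts 0 of 10 passed, where 0.917% of all genes did. The median log2 change of the 10 was -0.01 in floxed and 0.11 in Cre hearts.

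Slc16a1, the monocarboxylate transporter MCT1 that carries ketone bodies and lactate across the cell membrane, fell with succinate in floxed hearts. It was at 64.4, 64.0, 56.8 and 41.6 FPKM without and 38.1, 37.3, 39.6 and 35.6 FPKM with succinate, so the groups did not overlap. The change was -0.54 ± 0.14 on the log2 scale (SE, adjusted p = 0.0159). In Cre hearts it was at 66.6, 41.5, 59.5 and 45.5 FPKM without and 43.9, 35.0, 40.5 and 45.5 FPKM with succinate. These groups overlapped, at -0.33 ± 0.14 (adjusted p = 0.289). Averaged over genotypes Slc16a1 fell by 0.43 ± 0.10 (log2, SE, adjusted p = 0.00497). Bsg, the chaperone that takes this transporter to the membrane, was at 0.10 ± 0.13 in floxed and 0.07 ± 0.13 in Cre hearts, and the related transporter genes Slc16a7, Slc16a6 and Slc16a3 did not pass in either genotype.

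Aacs, the cytosolic acetoacetyl-CoA synthetase that feeds ketone carbon into lipid synthesis, also fell in floxed hearts. It was at 2.65, 1.90, 1.86 and 1.72 FPKM without and 1.02, 1.17, 1.04 and 1.02 FPKM with succinate, with no overlap. The change was -0.89 ± 0.16 (log2, SE, adjusted p = 0.00208), and -0.33 ± 0.16 in Cre hearts (adjusted p = 0.355). Oxct1 was thus higher and Aacs lower in the same treated floxed hearts. Acat2, the cytosolic thiolase, was at 0.00098 ± 0.22 in floxed hearts and 0.31 ± 0.21 in Cre hearts and did not pass.

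Bdh2, a cytosolic dehydrogenase of the same substrate, had 2 to 27 counts per library and was at -0.13 ± 0.50 in floxed and 0.77 ± 0.45 in Cre hearts (log2, SE, adjusted p = 0.889 and 0.464). The testis paralog Oxct2a and the receptor genes Hcar2 and Ffar2 had at most 5 counts in any library and were not tested.

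**Figure D4:**
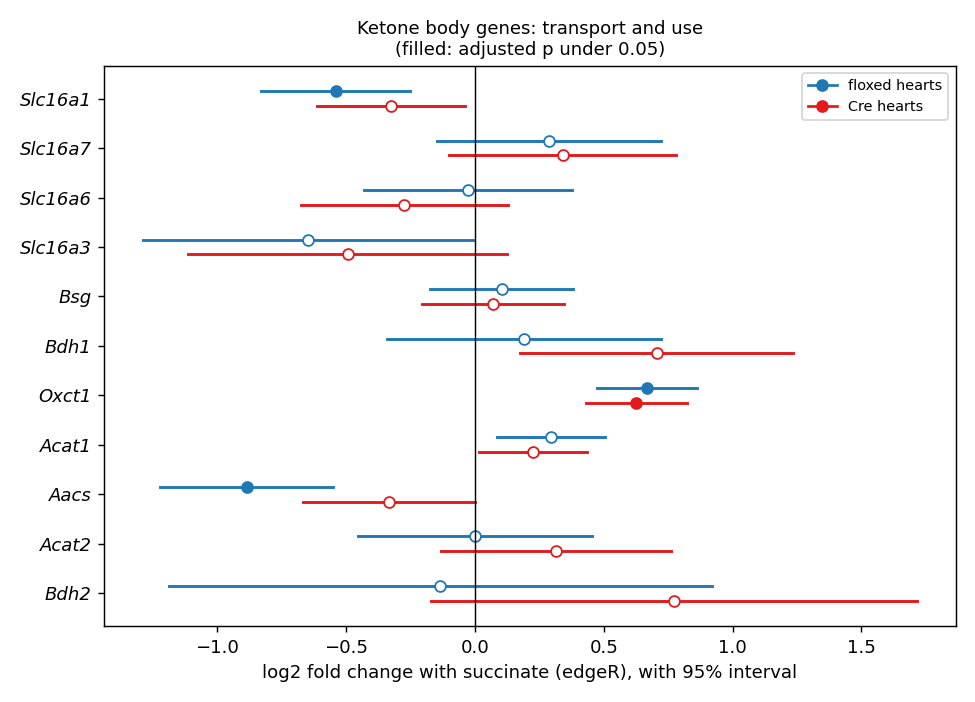
Log2 fold change with succinate (horizontal axis, edgeR, point with 95% interval) for 5 transport genes, the 3 members, 2 other genes of ketone use and Bdh2, in floxed (blue) and Cre hearts (red), filled where the adjusted p is under 0.05. Oxct1 is filled to the right in both genotypes (0.67 and 0.63), and Slc16a1 (-0.54) and Aacs (-0.89) are filled to the left in floxed hearts.

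Lists of genes that share a substrate with the members, or act in isoleucine and leucine breakdown, held a few that passed within a genotype. Dlst and Mccc2 passed in both genotypes. More passed on the average over genotypes. Of 10 genes that make or use succinyl-CoA or succinate, 2 rose, 0 fell and 8 did not pass in floxed hearts, where 7.48% of all tested genes rose. These were Dld (0.44 ± 0.09) and Dlst (0.36 ± 0.09, log2, SE), both subunits of the 2-oxoglutarate dehydrogenase complex that supplies succinyl-CoA to Oxct1. In Cre hearts 1 of 10 rose, where 0.602% of all genes did, Dlst by 0.40 ± 0.09. The median log2 change of the 10 was 0.29 in floxed and 0.24 in Cre hearts, and all 10 values were above 0 in each genotype. On the average over genotypes 7 of 10 rose, where 10.6% of all tested genes did, with a median of 0.25. With 1 library left out, the averaged calls of Sdhc and Sdhd were each lost in 14 of 16 fits, and that of Sdha in 7. The call of Dlst was lost in 2 of 16 fits that left out 1 library in floxed hearts, and in Cre hearts in 12 of 16 such fits and 4 of 12 other processing choices.

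Of 6 thiolases besides Acat1, 1 rose in floxed hearts, Acaa2 (0.43 ± 0.14), against the same 7.48% of all genes, and 0 passed in Cre hearts, with medians of 0.20 and 0.25. The call of Acaa2 was lost in 13 of 16 fits that left out 1 library and under 4 of 12 other processing choices, with a highest adjusted p of 0.0547 among the latter. Of 8 genes of isoleucine breakdown, in which Acat1 acts, and leucine breakdown, which yields acetoacetate, 3 rose in floxed hearts (7.48% of all genes). These were the leucine genes Mccc2 (0.49 ± 0.11), Auh (0.40 ± 0.11) and Mccc1 (0.37 ± 0.10). In Cre hearts 1 rose (0.602% of all), Mccc2 (0.51 ± 0.11). The isoleucine genes of the list did not pass in either genotype alone. With 1 library left out, Auh was lost in 3 and Mccc1 in 5 of 16 fits in floxed hearts. In Cre hearts Mccc2 was lost in 6 of 16 such fits and under 2 of 12 other processing choices. The medians of the 8 were 0.29 and 0.28, where Acat1 was at 0.30 and 0.22. On the average over genotypes 3 of the 6 thiolases and 5 of the 8 breakdown genes rose, where 10.6% of all tested genes did. Their medians were 0.17 and 0.31, where Acat1 was at 0.26. Of these thiolases Scp2 was lost in 12 of 16 fits that left out 1 library, and Acaa1b had 0 to 13 counts.

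Reads of other genes could enter these values. In GENCODE M21 transcripts, 0 of 3706 stretches of 50 bases of Acat1 occurred in another gene. Of Oxct1, 11.2% were shared with BC037032, and of Bdh1, 11.1% with Gm15743, genes that overlap them on the opposite strand. Whether counting used strand is not stated in these sources, and reads of overlapping strands cannot then be told apart. BC037032 had 27 to 104 counts per library, at most 0.368% of the count of Oxct1, and Gm15743 had 6 to 64, at most 5.20% of that of Bdh1.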

How the data were processed

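Bulk RNA of mouse heart was sequenced as 16 libraries, and the authors deposited whole-number counts per gene. The submitters' processing notes list HISAT2, HTSeq, fastp, DESeq2 and R 3.2.0, and the build GRCm39, without roles or settings. The deposited FPKM values of the authors followed from these counts and 1 length per gene (relative spread at most 1.2e-15). The 3 members and all gene lists were chosen with earlier results of these data known.

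Counts were tested with edgeR 4.0.16 in R 4.3.3 (robust quasi-likelihood F-test, TMM factors of 0.946 to 1.09, filterByExpr with a minimum count of 10, 14607 genes kept), with a mean for each of 4 groups, 12 residual degrees of freedom, and p-values adjusted by Benjamini-Hochberg over all tested genes to 0.05. All adjusted p-values are from this test unless another tool is named. SE was the log2 fold change over the square root of F. A floor of 3 counts was 0.0865 to 0.108 CPM, covering counting error only. Replicate pairs within a group had a chi-square of 10.9 to 60.8 per degree of freedom, above sampling noise. No library was therefore a repeat deposit of another in its group, and pairs across groups were not checked this way.

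The members were named in every comparison. Also named were tested genes of the ketone lists (some are counted in the lists but not reported here), genes of the substrate lists that passed with succinate, and for each member the 4 genes of highest Pearson correlation of log2 CPM (prior count 2, plain symbols). Alternatives were DESeq2 1.42.0, limma 3.58.1 (voom with sample weights, and log2 FPKM after adding 1 or 0.1, or with genes under a mean of 1 dropped), RLE factors, a fit without mitochondrially encoded genes, no filter or a minimum count of 50, only the groups compared, a replicate block, each library left out, and, added after seeing the data, 2 libraries left out. Mitochondrially encoded genes were found by their symbols in the table, which carry no mt- prefix, and took 23.5% to 27.7% of counts.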

Additional observations from a re-analysis of the deposited data

Results flagged for a closer look

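A scan of the FPKM of the 3 members, their ratios and the 10 tested ketone genes covered 64 groups of 4 hearts, of which chance alone would mark about 1 in 20, and 3 stood out. The ratio of Acat1 to Bdh1 in replicate 1 of the untreated Cre hearts was 7.15, far below the 11.6 to 12.5 of the other replicates; that heart had the lowest Acat1 and the highest Bdh1 of its group. The same heart had 0.951 FPKM of Slc16a3, a lactate transporter gene, against 0.466 to 0.510 in its group. Replicate 2 of the untreated floxed hearts, which had the lowest Bdh1, had 0.369 FPKM of Slc16a3, against 0.545 to 0.574 in the others.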

How the results depend on the processing

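Oxct1 kept its direction and its call for succinate in both genotypes and on average under every alternative run. Acat1 in floxed hearts passed in DESeq2 (0.28), limma voom (0.29), the 3 limma fits on FPKM (each 0.24), the fit of only the groups compared (0.29) and without 2 libraries singled out earlier, namely the untreated floxed replicate 4 and the untreated Cre replicate 1 (0.28); this choice was made after seeing the data. Bdh1 passed in Cre hearts in the fit of only those groups (0.70) and on average in limma voom (0.51). Without those 2 libraries Oxct1 differed by 0.0095 for genotype without succinate, of opposite sign. With 1 library left out, log2 values ranged from 0.26 to 0.30 for Acat1 and -0.059 to 0.40 for Bdh1 with succinate in floxed hearts, 0.32 to 0.55 for Bdh1 on average, -0.017 to 0.44 for Bdh1 and -0.059 to 0.0068 for Oxct1 by genotype without succinate, and -0.12 to 0.012 for Oxct1 in the interaction. Bdh1 passed on average without replicate 1 of the untreated floxed hearts (adjusted p = 0.0369).

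Over all genes, 1917, 134, 2781, 16, 101 and 0 passed for succinate in floxed hearts, in Cre hearts and on average, genotype without and with succinate, and interaction. Limma voom called 2958 in floxed hearts and 198 for genotype with succinate. DESeq2 called 483 in Cre hearts, 86 and 307 for genotype without and with succinate, and 3 for the interaction. Only the groups compared gave 46 in Cre hearts and 3 for genotype without succinate. FPKM with a mean of at least 1 gave 7 and 51 for genotype. Without the 2 libraries 40 passed in Cre hearts, 81 and 158 for genotype, and 7 for the interaction. Leaving out 1 library gave 1018 to 2106 in floxed hearts, 22 to 183 in Cre hearts, 4 to 23 and 44 to 134 for genotype. The share of higher calls in floxed hearts was 57.0%, and 43.5% to 46.9% on FPKM, and on average it was 55.6%, and 42.1% to 43.7% on FPKM; in Cre hearts it was 65.7%, and 52.2% with only those groups.

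No pairing of the hearts by replicate number was found: 3 of 24 same-numbered pairs correlated above 0.1 in their deviations from group means, and 5 of 16 libraries correlated best with their own number. The median correlation was 0.019 for same-numbered pairs, with a highest value of 0.32, and -0.024 for the other pairs. A weak pairing could be missed by this check. With the replicate number as a block 1903, 136, 2826, 11, 92 and 0 genes passed in the order above, Oxct1 was at 0.67 and 0.63 in floxed and Cre hearts, and no call of the 3 members changed.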
